A study of Gallus gallus with 9 samples.

Results

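In granulosa cells of the chicken F1 follicle, the largest follicle of the ovary before ovulation, 93 of the 7528 lncRNAs in the deposited table were expressed at the ZT0 and ZT12 stages and stood higher at ZT20, the stage of the luteinizing hormone (LH) surge. They were chosen on the stage means of the deposited log2 values. The ZT0 mean and the ZT12 mean each had to reach 2, the value of 2 TPM (an abundance scaled for transcript length and library total), and the ZT20 mean had to exceed the higher of them by at least 1.5. Both earlier means reached 2 in 2053 lncRNAs, so the 93 made up 4.53% of the lncRNAs expressed before the surge. A rise of this size at any earlier level was seen in 272 lncRNAs, and 179 of them missed the level at ZT0 or ZT12. The rise at ZT20 therefore chose these lncRNAs, and it is described here without a test.

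The cells came from Rohman layers, hens of an egg-laying line, that were 210 days old, laid regularly at about the same hour, and no treatment is named for any of them. Granulosa cells of the F1 follicle were collected from 3 hens at ZT0 (clock hour 9), 3 hens at ZT12 (clock hour 21) and 3 hens at ZT20 (clock hour 5), which the study takes as the early, middle and LH surge stages of the ovulatory cycle. Each hen gave 1 library, made after depletion of ribosomal RNA, and each hen was sampled at 1 stage. The stage of the cycle and the time of day changed together and cannot be told apart.

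Granulosa cells line the inside of the follicle and make progesterone from cholesterol. The preovulatory LH surge acts on the LH receptor of these cells, raises cyclic AMP, switches on steroid synthesis and starts the events that end in rupture of the follicle. lncRNAs are long transcripts without a recognisable protein-coding frame, many of which lie inside or beside protein-coding genes and are transcribed with them, and for most of them no function is known. Of the 93, 83 carry a G number given by the study to transcripts it assembled from its own reads, and 10 carry an Ensembl identifier.

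Transcript sequences of the 93 were not used here. The primer pairs that the study designed for quantitative PCR of 3 of them are shown because they mark a stretch of each transcript by which it can be found again. They are written 5′ to 3′, with no part set in capitals.
G4510 forward: tgctgctgttctgtctctca
G4510 reverse: atctctcctgctgcttggtt
G5405 forward: tccaggggctgctaatactg
G5405 reverse: ctcccctgacaactccgtg
G13560 forward: atggaagtcagaaggtgcca
G13560 reverse: caactctgagcactgcactg

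TPM were recovered from the deposited log2 values, and lncRNAs plus mRNAs then added up to between 972378 and 983179 TPM in each library. TPM keep no record of counts, and the reads behind a value are unknown. ZT12 replicate 3 stood apart. It had 5299 lncRNAs above 0.1 TPM, against 5908 to 6300 in the other 8 libraries, and its median ratio to the mean library over lncRNAs was 0.443, against 0.835 to 1.48. The study reports a higher GC content (share of G and C bases in the reads) in every ZT12 library than in any ZT0 library. It was highest in ZT12 replicate 3, and ZT20 replicate 3 came next. The part of GC content in the results was not tested. Of 27 cell type markers only 4 could be paired with an identifier, so the granulosa label could be checked in part. No marker of theca (the layer around the granulosa cells) or stroma was among them, so those cells were not checked. STAR and NR5A1, from the granulosa marker list, reached 1011 to 16462 TPM and 31.6 to 350.3 TPM over the 9 libraries. They moved in opposite directions at ZT20 against ZT12, with log2 fold changes of 3.13 for STAR and -2.06 for NR5A1. The leukocyte gene PTPRC was at 0.274 to 0.639 TPM at ZT0, 0.184 to 0.431 TPM at ZT12 and 0.612 to 0.753 TPM at ZT20. Its log2 fold change at ZT20 against ZT12 was 0.37, in the direction of the 93, and its part in the results was not tested. CLDN5 is a tight junction protein of endothelium. It was at 24.5 to 74.5 TPM at ZT0, 14.2 to 19.3 TPM at ZT12 and 4.16 to 5.15 TPM at ZT20. At ZT20 it moved in the opposite direction to the 93. At ZT12 against ZT0 it was lower (log2 fold change of -1.37), as were most of the 93. The part of CLDN5 in the results was not tested. In stained sections the study saw a thinner granulosa layer, holding fewer cells, at ZT20 than at ZT0 or ZT12. The part of this difference in the results was not tested. In whole-cell RNA a change in the level per cell and a change in the mixture of cells cannot be told apart.

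The rise, on the log2(TPM + 2) scale of the deposited values, ranged over the 93 lncRNAs from 1.51 to 4.94, with a median of 2.34. In 92 of the 93 all 3 ZT20 libraries were above all 6 earlier libraries. That pattern was seen in 19.2% of the 7414 lncRNAs tested and in 14.7% of those expressed before the surge, and nothing is read from the difference, since the 93 were chosen on their ZT20 level. As ratios of mean TPM, ZT20 exceeded ZT12 by a median of 10.1 times (4.52 to 105 times) and ZT0 by a median of 6.01 times (2.88 to 37.5 times). The ZT20 mean was at least 10 times the ZT12 mean in 47 lncRNAs and at least 10 times the ZT0 mean in 22. The rise was 4 or more in 8 lncRNAs, 3 or more in 22 and 2 or more in 67.

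G11194 had the largest rise. It was at 2.36, 7.96 and 9.98 TPM in the ZT0 libraries, 9.12, 5.52 and 0.614 TPM in the ZT12 libraries and 165, 308 and 288 TPM in the ZT20 libraries, a rise of 4.94. The lowest ZT20 library was thus more than 10 times above the highest earlier library. G4513 and G4510, which have neighbouring numbers, came next. G4513 was at 4.38, 11.6 and 13.6 TPM at ZT0, 4.41, 4.91 and 0.675 TPM at ZT12 and 385, 444 and 220.4 TPM at ZT20. Its ZT20 mean was 105 times its ZT12 mean, the highest such ratio of the 93. G4510 was at 9.75, 12.3 and 17.5 TPM at ZT0, 4.03, 5.97 and 0.736 TPM at ZT12 and 379, 343 and 303 TPM at ZT20. Its 3 stages did not overlap, with ZT12 the lowest and ZT20 the highest.

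The other lncRNAs among the 10 largest rises were G7030, G11062, G13584, G11061, G6850, G11064 and G11063, with rises of 4.52, 4.34, 4.16, 4.06, 4.02, 3.99 and 3.96. G7030 was uneven before the surge, with 0.482, 16.1 and 1.20 TPM at ZT0 and 7.07, 1.43 and 1.57 TPM at ZT12, while its ZT20 libraries held 82.5, 95.4 and 209 TPM. G11061, G11062, G11063 and G11064 have consecutive numbers, and all 4 are among the 10. Their ZT20 means were 36.6 to 46.7 times their ZT12 means. In the plot of the 10 largest rises every ZT20 point lies above every earlier point of the same lncRNA.

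**Figure D1:**
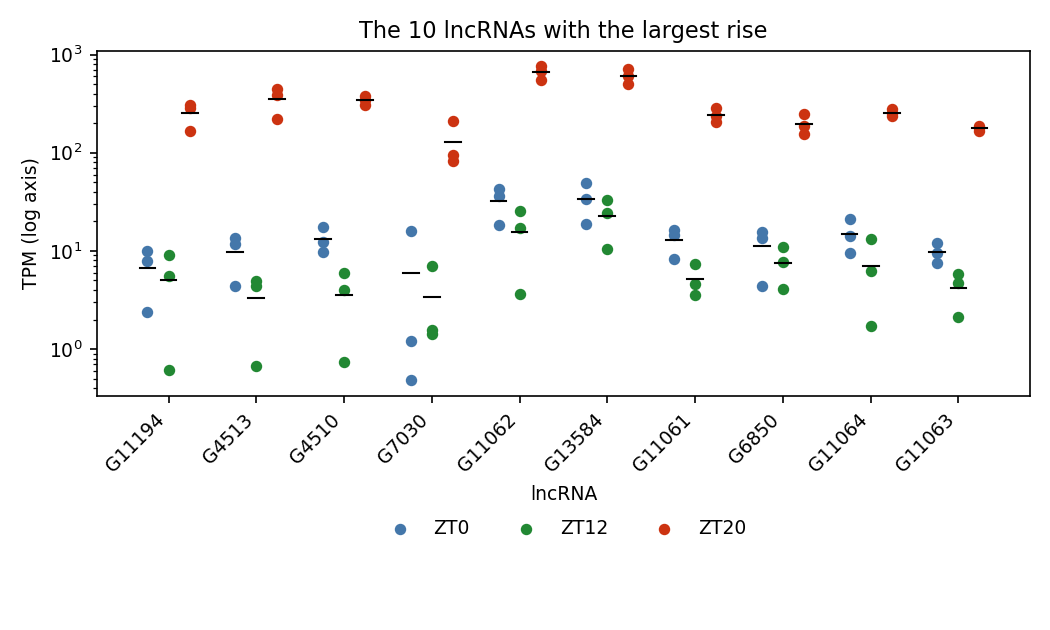
TPM of the 10 lncRNAs with the largest rise in each of the 9 libraries, on a log axis, with lncRNAs along the x axis. Points are hens (3 per stage) and short lines are stage means. G11194 lies at 165 to 308 TPM at ZT20 and at 0.614 to 9.98 TPM before, and the lowest values of G4513 and G4510 (0.675 and 0.736 TPM) come from ZT12 replicate 3.

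The level reached at ZT20 varied more widely than the rise. The ZT20 means ran from 12.9 to 937 TPM with a median of 77.8 TPM, compared with 2.58 to 98.1 TPM (median 11.7 TPM) at ZT0 and 2.07 to 57.2 TPM (median 6.06 TPM) at ZT12. Ranked by mean TPM among all 7528 lncRNAs, the 93 had a median rank of 816 at ZT0, 880 at ZT12 and 154 at ZT20. Among the 100 most abundant lncRNAs were 2 of them at ZT0, 0 at ZT12 and 32 at ZT20. A ZT20 mean of at least 100 TPM was reached by 36, and 8 stayed under 20 TPM. The heat map of all 93 shows the step at ZT20 in nearly every row.

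**Figure D2:**
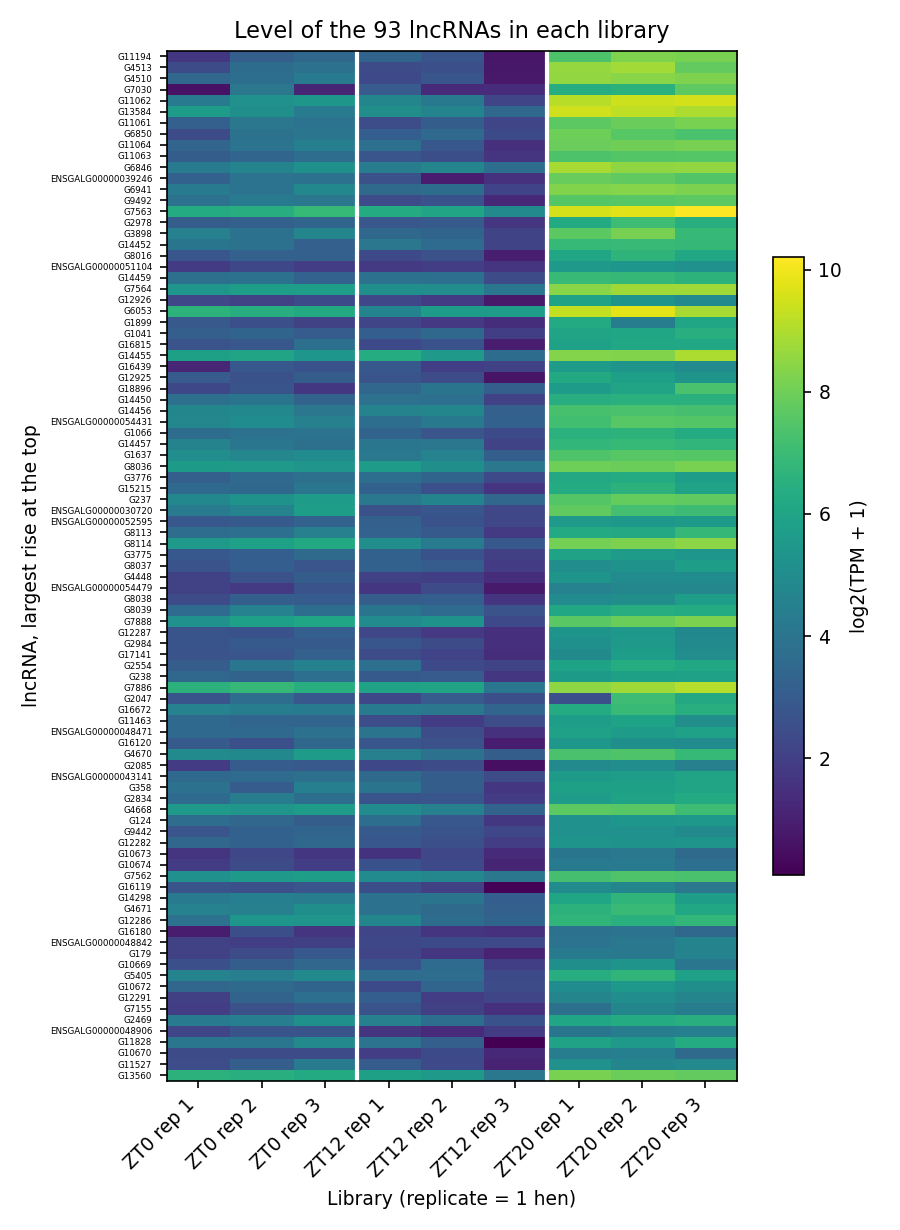
Level of each of the 93 lncRNAs in each library as log2(TPM + 1), with lncRNAs ordered by rise from 4.94 (top) to 1.51 (bottom) and libraries ordered by stage. The 3 ZT20 columns are brighter than the 6 earlier columns in 92 rows, the exception being G2047 in ZT20 replicate 1, and ZT12 replicate 3 is the darkest column in 81 rows.

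G7563 was the most abundant of the 93 at ZT20. It was at 78.9, 84.3 and 115 TPM at ZT0, 79.4, 63.1 and 29.2 TPM at ZT12 and 759, 866 and 1185 TPM at ZT20, which placed it at rank 99, 114 and 4 of all lncRNAs. G11062 followed with 18.4, 36.5 and 42.4 TPM at ZT0, 25.6, 17.1 and 3.63 TPM at ZT12 and 554, 687 and 756 TPM at ZT20. G6053 was at 99.3, 83.7 and 73.7 TPM at ZT0, 24.3, 48.8 and 50.9 TPM at ZT12 and 623, 894 and 477 TPM at ZT20. G13584, the last of the 4 above 500 TPM, was at 49.6, 33.8 and 18.7 TPM at ZT0, 33.3, 24.1 and 10.4 TPM at ZT12 and 711, 607 and 499 TPM at ZT20. These 4 ranked 4, 7, 8 and 10 of all lncRNAs at ZT20. The rest of the 10 highest were G7886, G6846, G7564, G14455, G4513 and G4510, with ZT20 means of 443, 405, 403, 379, 349.7 and 342 TPM.

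Summed over the 93, the TPM of the libraries were 1551, 1771 and 1923 at ZT0, 1275, 1094 and 472 at ZT12 and 12492, 13695 and 13173 at ZT20. They held 1.42% ± 0.206 of all lncRNA TPM in ZT0 hens, 0.760% ± 0.261 in ZT12 hens and 10.7% ± 0.783 in ZT20 hens (SD, n = 3 each). The groups did not overlap. The most abundant lncRNA takes a large part of this denominator, and without it the set held 2.28% ± 0.152 at ZT0, 1.47% ± 0.637 at ZT12 and 16.9% ± 1.42 at ZT20, where the ZT12 and ZT0 libraries again did not overlap. The 10 highest of the 93 in each library held 39.2 to 41.2% of that sum in the ZT20 libraries and 36.3 to 42.4% in the earlier ones, so the sum was no more concentrated at ZT20 than before. The lowest share, 0.472%, was in ZT12 replicate 3.

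**Figure D3:**
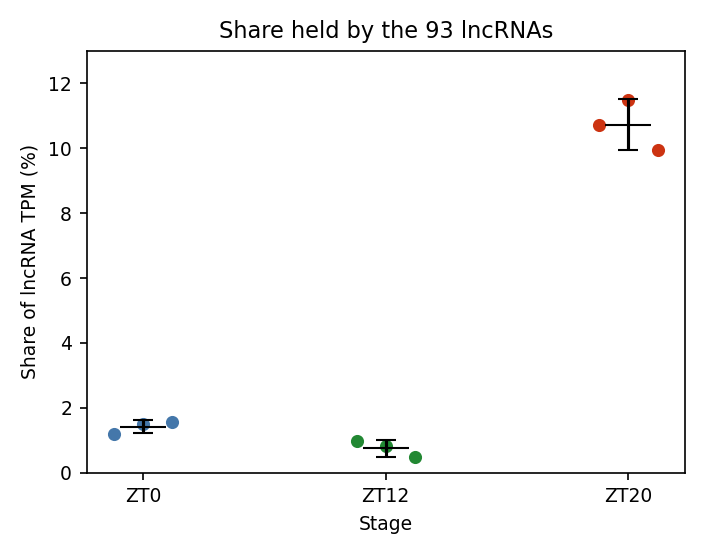
Summed TPM of the 93 lncRNAs as a percentage of all lncRNA TPM, by stage (x axis) in each library (points, 3 hens per stage), with the mean and SD of each stage in black. ZT20 libraries lie between 9.93 and 11.5%, ZT0 libraries between 1.18 and 1.56% and ZT12 libraries between 0.472 and 0.983%.

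The spread between ZT20 hens is given here without that of other stages or other lncRNAs. The SD over the 3 ZT20 hens on the log2(TPM + 1) scale had a median of 0.24 and was under 0.5 in 86 of the 93 lncRNAs. The smallest spreads belonged to G12282 (39.6, 38.2 and 39.3 TPM), G14456 (154, 155 and 148 TPM), G14457 (110.1, 115 and 106 TPM) and G14452 (117, 122 and 113 TPM). G14452, G14456 and G14457 have numbers that lie close together and are not independent of each other. The largest spreads belonged to G2047, G1899, G18896 and G7030. G2047 had 4.90 TPM in ZT20 replicate 1, but 135 and 71.5 TPM in the other 2 hens. The value in ZT20 replicate 1 lay below all 3 ZT0 libraries, the highest of which was at 12.2 TPM. It also lay below ZT12 replicate 2, and above the other 2 ZT12 libraries. The rise of G2047 thus came from 2 of the 3 ZT20 hens. G2047 is the single lncRNA of the set whose ZT20 libraries overlapped the earlier ones. G1899 had 19.0 TPM in ZT20 replicate 2 against 77.0 and 67.5 TPM in the other 2 hens. The highest ZT20 value lay in replicate 1 for 22 lncRNAs, in replicate 2 for 41 and in replicate 3 for 30, so no single hen carried the level.

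Close to the limit of 1.5, the last lncRNAs inside were G13560 with a rise of 1.51, G11527 with 1.52, and G10670 and G11828 with 1.56 each. The first ones outside were G11464 with 1.49, ENSGALG00000048271 with 1.48, G7156 with 1.47 and G18744 with 1.46. The mean TPM of G11464 were 7.72 at ZT0, 3.34 at ZT12 and 24.95 at ZT20, close to those of G11527, which were 10.4, 4.14 and 30.0. The set therefore has no natural edge at 1.5.

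Of 4 lncRNAs that the study names, 3 belong to the set. G13560, which the study set beside STAR, was at 96.8, 86.8 and 77.6 TPM at ZT0, 57.1, 46.6 and 16.5 TPM at ZT12 and 292, 246 and 218 TPM at ZT20. Its stages did not overlap, and its ZT20 mean was 2.89 times its ZT0 mean. G5405 was at 23.6, 20.3 and 28.5 TPM at ZT0, 11.9, 11.9 and 4.14 TPM at ZT12 and 83.5, 105 and 58.2 TPM at ZT20, again without overlap. The third is G4510. G17003 had a rise of 4.02 and is not in the set, because its deposited log2 means were 1.58 at ZT0 and 1.24 at ZT12.

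The difference between ZT12 and ZT0 was tested with limma over all 7414 lncRNAs. The choice of the 93 asked for no such difference, but it set a floor on both stage means and took the rise over the higher of them, so the values tested are not free of the choice, and the floor limits how far one of the 93 could lie below its ZT0 level. The 93 lay lower at ZT12 in 89 cases and higher in 4, with a median log2 fold change of -0.87, but none of them passed the test. At an adjusted p under 0.05 and a log2 fold change beyond 1 in size, 0 of the 93 were called, as against 6 of 7414 lncRNAs (0.0809%). At an unadjusted p under 0.05 there were 45 of the 93 and 1874 of the 7414. These are unlike in level, since the median ZT0 mean was 11.7 TPM for the 93 and 1.11 TPM for all lncRNAs. The count was not made for the other lncRNAs expressed at both stages. The median fold change was -0.25 over all lncRNAs tested and -0.68 over the 1960 other lncRNAs expressed at both stages, of which 1751 were lower at ZT12. All 3 ZT12 libraries lay below all 3 ZT0 libraries in 39 of the 93, compared with 28.2% of all lncRNAs tested and 42.1% of those expressed at both stages.

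This downward difference moved with the scaling of the libraries and with 1 hen. Median ratio scaling, which moves the median of all lncRNAs to 0.00, gave a median of -0.17 for the 93, with 53 lower and 40 higher at ZT12, and quantile normalization gave -0.18 with 55 lower and 38 higher. Without ZT12 replicate 3 the median was -0.50, with 75 lower and 18 higher. Among the 6 earlier libraries ZT12 replicate 3 held the lowest value in 81 of the 93 lncRNAs (87.1%) and in 1415 of the 1960 others (72.2%). At an unadjusted p under 0.05 there were 9 of the 93 and 920 of the 7414 after median ratio scaling, and 10 and 926 after quantile normalization. The plot of ZT12 minus ZT0 under the 4 treatments sets both groups of lncRNAs side by side.

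**Figure D4:**
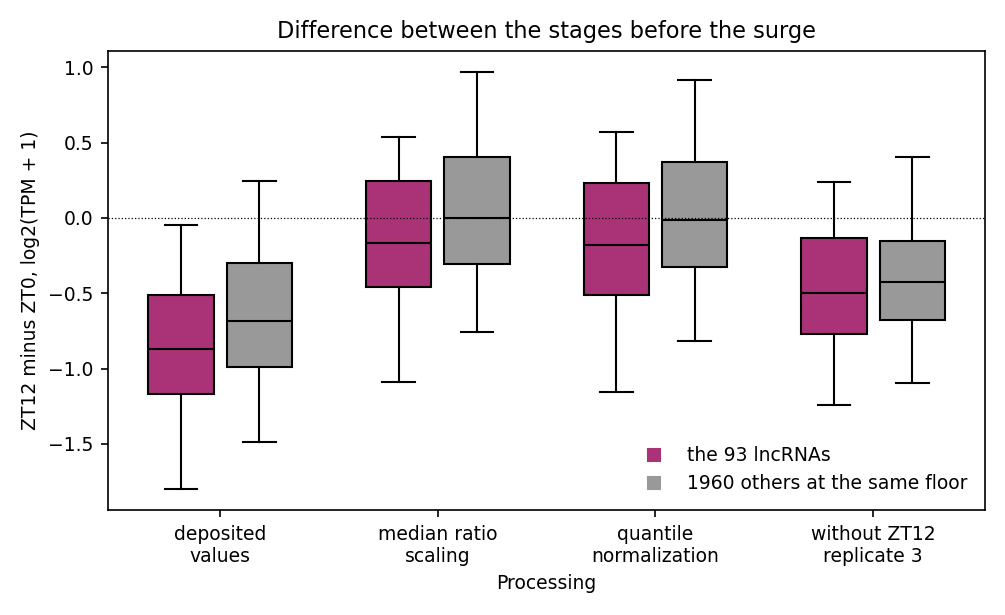
Difference of ZT12 minus ZT0 in log2(TPM + 1), from limma, for the 93 lncRNAs and for the 1960 other lncRNAs expressed at both stages, with the deposited values, after 2 scalings and without 1 library. Boxes span the quartiles with the median as a line, and whiskers run from the 5th to the 95th percentile. The median of the 93 is -0.87, -0.17, -0.18 and -0.50 from left to right, and that of the others is -0.68, 0.00, -0.01 and -0.43.

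The lncRNA with the lowest adjusted p among the 93 was ENSGALG00000030720. It was at 5.04, 6.05 and 3.74 TPM at ZT12, against 18.0, 23.8 and 51.6 TPM at ZT0, a log2 fold change of -2.31 ± 0.42 (SE) with an adjusted p of 0.0572 by limma. Next in size were ENSGALG00000039246 with -1.998 ± 0.43 (adjusted p = 0.0853 by limma), G9492 with -1.97 ± 0.40 (0.0745) and G11828 with -1.92 ± 0.75 (0.157). In all 4 the ZT12 libraries lay below the ZT0 libraries. The value of G11828 in ZT12 replicate 3 was 0.0661 TPM, against 14.5 and 7.98 TPM in the other 2 hens of that stage.

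On the mean of log2(TPM + 1) with the deposited scaling, 4 lncRNAs lay higher at ZT12: G18896, ENSGALG00000048842, G16180 and G16439. G18896 was at 9.72, 14.9 and 7.87 TPM at ZT12 and 3.86, 5.65 and 2.31 TPM at ZT0, a log2 fold change of 1.27 ± 0.46 (SE) with an adjusted p of 0.140 by limma. At ZT20 it reached 49.1, 62.3 and 157 TPM, so its 3 stages followed each other without overlap. ENSGALG00000048842 was at 3.90, 4.18 and 4.02 TPM at ZT12 and 3.22, 2.97 and 2.98 TPM at ZT0, a fold change of 0.31 ± 0.29. The fold changes of G16180 and G16439 were 0.09 and 0.08, less than their standard errors.

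Many of the 93 carry numbers that lie close together. The numbers follow position along the genome, since of 1772 annotated pairs of lncRNAs with numbers at most 5 apart, 1762 lay on 1 chromosome, 59.5% lay within 100 kb of each other, and the median distance was 68.5 kb. By this measure 45 of the 83 numbered lncRNAs fell into 15 runs of 2 to 6, and 38 stood alone. The same count was not made for other lncRNAs, so whether 45 of 83 is an unusual share was not tested. In 11 of the 15 runs the span of numbers held no listed lncRNA outside the set. Runs were formed from the 93 alone, so both ends of a span belong to the set, and nothing is read from that count. Transcripts of 1 run may be pieces of 1 longer transcript or overlap, and they are not independent of each other.

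The longest run held G14450, G14452, G14455, G14456, G14457 and G14459, with rises between 2.57 and 3.10. G14455 was the most abundant, with 55.8, 62.3 and 41.0 TPM at ZT0, 81.3, 46.2 and 11.7 TPM at ZT12 and 325, 310.0 and 502 TPM at ZT20. G14452 was at 15.2, 13.7 and 8.04 TPM at ZT0, 16.3, 11.4 and 3.46 TPM at ZT12 and 117, 122 and 113 TPM at ZT20. The ZT20 means of the 6 were 6.34 to 9.52 times their ZT0 means. G14453 and G14454 lie within the same span of numbers and were not in the set, with ZT20 means of 0.0897 and 1.65 TPM.

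A run of 5, from G10669 to G10674, had the smallest rises of any run, 1.56 to 1.80, and low levels: the highest library, G10672 in ZT20 replicate 2, was at 43.5 TPM. The 4 lncRNAs from G11061 to G11064 had rises of 3.96 to 4.34. The 4 from G12282 to G12291 had rises of 1.63 to 2.22, and the lncRNA G12285 between them just missed the set with a rise of 1.40. Each of these runs covered a small part of the full range of 1.51 to 4.94. The run of G7562, G7563 and G7564 was less even, with rises of 1.78, 3.30 and 3.01.

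Position and class were read from the part of the study's transcript annotation used here, which lists 1220 lncRNAs, 21 of them among the 93. These shares describe that part and not the whole set. The other lncRNAs in it were of any level, while the 21 had to be expressed at ZT0 and ZT12. Several of the 21 lie close together and are not independent of each other. Of the 21, 12 (57.1%) were classed as intronic, that is, within an intron of a protein-coding gene, compared with 40.5% of the 1199 other lncRNAs. Another 3 were downstream of a gene, 4 were of an antisense class (19.0%, compared with 28.4% of the others), 1 was divergent and 1 was intergenic (4.76%, compared with 13.7%). The transcripts had 2 exons in 17 of 21 cases (81.0%, compared with 66.5% of the others), and their median length was 601 bases (282 to 26657), compared with 1207 bases for the others. On chromosome 2 lay 17 of the 21, on chromosome 24 lay 2, and on chromosomes 17 and 19 lay 1 each. Chromosome 2 also holds 581 of the 1199 others, since the part of the annotation used here is not an even sample of the genome.

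The 21 lncRNAs fell into 13 places when those within 100 kb of each other were joined, and 5 of these places held 13 of them. The lncRNAs were assembled on Gallus_gallus v6.0, and their positions are given as the annotation lists them. G8036, G8037, G8038 and G8039 lay between chr2:127781516-127787818 and chr2:127875184-127875622, G8036 and G8039 classed as intronic and the other 2 as downstream. G8036 was at 48.3, 46.9 and 40.3 TPM at ZT0, 49.2, 34.2 and 16.4 TPM at ZT12 and 253, 245 and 291 TPM at ZT20. The annotation places it near STK3, a kinase of the Hippo pathway, and OSR2, a zinc finger transcription factor. G7562 (chr2:89918110-89963719), G7563 (chr2:89934302-89947813) and G7564 (chr2:90014784-90015649) were all intronic, and the first 2 overlap in position. G7562 and G7563 are listed beside PARD6G, a cell polarity protein, and SCGN, a calcium-binding protein.

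G7886 (chr2:116245563-116524144) and G7888 (chr2:116246638-116247316) lay beside SULF1, which removes sulfate groups from heparan sulfate, and the span of G7886 contains that of G7888. G7886 was at 96.4, 111 and 86.4 TPM at ZT0, 59.3, 63.0 and 15.8 TPM at ZT12 and 356, 432 and 539.6 TPM at ZT20. G7888 was at 36.4, 54.5 and 65.2 TPM at ZT0, 30.4, 37.5 and 4.04 TPM at ZT12 and 198, 246 and 299.7 TPM at ZT20. Both were lowest in ZT12 replicate 3 and highest in ZT20 replicate 3. G8016 (chr2:126824409-126940158) was intronic and listed beside MTERF3, PTDSS1 and SDC2, the last a heparan sulfate proteoglycan. It was at 6.03, 8.27 and 8.10 TPM at ZT0, 3.97, 5.01 and 0.902 TPM at ZT12 and 67.3, 100.3 and 71.0 TPM at ZT20. G7030 (chr2:43773238-43778758) was classed as antisense and listed beside TRAK1 and CCK, the latter the precursor of cholecystokinin. G6941 (chr2:38454380-38455184), classed as intronic, was listed beside NEK10 and EOMES, the latter a T-box transcription factor. Which of the listed genes each lncRNA overlaps was not checked. These named genes have no value paired with them here, so whether they moved was not tested.

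Values could be paired for 30 mRNAs that the annotation lists within 100 kb of the 93. They lie beside 12 of the lncRNAs, at 7 places, and the remaining 56 of the 86 listed genes could not be paired. All 30 are listed by identifier, and none of the genes listed by name could be paired. The distance is that of the annotation's own list. Over all lncRNAs, by the positions the same annotation gives, 615 listed pairs lie within 100 kb and 557 beyond it, and the mRNA and lncRNA positions are offset against each other by amounts that differ between chromosomes, so the distances could not be checked. The mRNA values were not used in choosing the lncRNAs, but they come from the same 9 libraries. At ZT20 against ZT12, 23 of the 30 rose and 0 fell by limma, while of all 12472 mRNAs tested 16.0% rose and 11.7% fell. Their median log2 fold change was 2.41, compared with 0.08 over all mRNAs. At ZT20 against ZT0, 21 of the 30 rose and 0 fell, while of all mRNAs 11.6% rose and 16.6% fell, and the medians were 1.58 for the 30 and -0.19 for all. Both comparisons use the same ZT20 libraries.

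All 3 ZT20 libraries lay above the 6 earlier libraries in 22 of the 30 mRNAs, compared with 21.6% of all mRNAs. Among 515 mRNAs listed beside other lncRNAs expressed before the surge, 12.4% rose at ZT20 against ZT12. Those other lncRNAs are the ones that lacked the chosen rise at ZT20, so this share is not free of the choice. Among 533 mRNAs listed by identifier beside any annotated lncRNA, 19.1% rose at ZT20 against ZT12 and 13.1% at ZT20 against ZT0. Each of the 7 places had at least 1 mRNA that rose. The mRNAs of 1 place are neighbours of each other as well, so the 30 are not independent. The sources used here do not state whether reads were counted by strand, and without strand the reads of an intronic or overlapping lncRNA and of its host gene cannot be told apart. Median ratio scaling moved the median of all mRNAs from -0.19 to 0.00 at ZT20 against ZT0, and the counts stayed at 23 and 21.

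**Figure D5:**
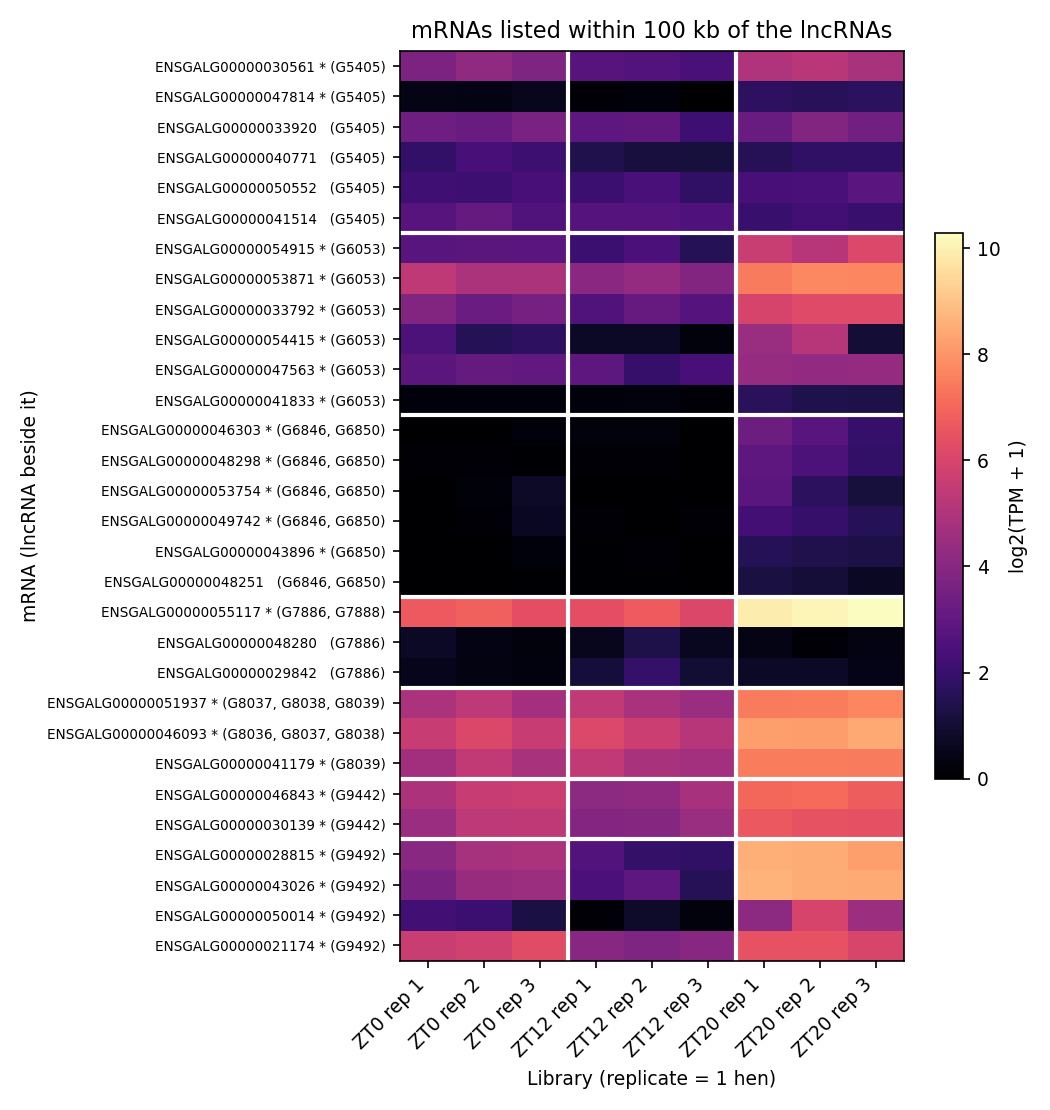
Level of the 30 mRNAs listed within 100 kb of the lncRNAs, as log2(TPM + 1), in each library, with the lncRNA beside each mRNA in brackets and the 7 places set apart by horizontal lines. A star marks the 23 mRNAs that rose at ZT20 against ZT12 by limma, and 22 rows have all 3 ZT20 libraries above the rest.

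The largest changes lay beside G9492 (chr24:6325620-6348602), an intronic lncRNA at 13.5, 18.0 and 16.0 TPM at ZT0, 4.38, 5.30 and 1.31 TPM at ZT12 and 188, 192 and 204 TPM at ZT20. ENSGALG00000028815 beside it was at 15.7, 25.9 and 28.3 TPM at ZT0, 5.41, 2.80 and 2.55 TPM at ZT12 and 382, 360.0 and 295 TPM at ZT20. ENSGALG00000043026 was at 11.6, 20.3 and 21.9 TPM at ZT0, 4.56, 6.53 and 1.99 TPM at ZT12 and 409.9, 363 and 355 TPM at ZT20. Both followed the order of the lncRNA, with ZT12 lowest and ZT20 highest and no overlap between stages. Part of this order is common. All ZT12 libraries lay below all ZT0 libraries in 42.1% of the lncRNAs expressed at both stages, a share not counted over mRNAs. The log2 fold changes of both mRNAs at ZT20 against ZT12 were 6.29 ± 0.27 and 6.23 ± 0.32 (SE), with adjusted p of 5.11e-08 and 1.73e-07 by limma. ENSGALG00000050014 rose there by 4.48 ± 0.45 and ENSGALG00000021174 by 2.43 ± 0.19. ENSGALG00000021174 was at 88.3, 90.0 and 64.3 TPM at ZT20 against 47.9, 55.0 and 74.6 TPM at ZT0, where the stages overlapped and no change was called. The annotation also lists CRYAB and HSPB2, which encode small heat shock proteins, near G9492, without values here.

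Between ZT12 and ZT0, 5 of the 30 mRNAs fell and 0 rose, while of all mRNAs 3.32% fell and 0.537% rose. Among the 533 mRNAs listed by identifier beside any annotated lncRNA, 5.44% fell and 1.13% rose. Of the 5 that fell, 3 lay beside G9492. ENSGALG00000028815 fell by 2.42 on the log2 scale, ENSGALG00000021174 by 1.98 and ENSGALG00000043026 by 1.87, with adjusted p of 0.00322, 0.00183 and 0.0120 by limma. After median ratio scaling 3 were called lower and 1 higher. The 3 were the same mRNAs beside G9492, which fell by 2.12, 1.65 and 1.57 on the log2 scale, and ENSGALG00000029842 beside G7886 rose by 1.04 (adjusted p = 0.0349 by limma). Quantile normalization also gave 3 lower and 1 higher. The median of all mRNAs moved from -0.28 to -0.02 with median ratio scaling and to 0.00 with quantile normalization. Calls over all mRNAs were not counted under either scaling, so the shares above do not apply to these counts. G9492 itself, at -1.97, was not called in the lncRNA test (adjusted p = 0.0745 by limma). It was called at the same fold change when only lncRNAs with 1 TPM or more in 3 or more libraries were tested (0.0474) and when lncRNAs and mRNAs were fitted together (0.0190).

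ENSGALG00000055117, listed beside G7886 and G7888, was the most abundant of the 30. It was at 103, 116 and 81.1 TPM at ZT0, 81.8, 107 and 67.4 TPM at ZT12 and 960.0, 1097 and 1252 TPM at ZT20, and rose by 3.69 ± 0.19 at ZT20 against ZT12 (adjusted p = 1.94e-07 by limma). Like G7886 and G7888, it was lowest in ZT12 replicate 3 and highest in ZT20 replicate 3. ZT12 replicate 3 had the lowest median ratio of all libraries, over lncRNAs (0.443) and over mRNAs (0.835). Beside G8036 to G8039, ENSGALG00000046093 rose by 2.61 ± 0.23, ENSGALG00000051937 by 2.63 ± 0.24 and ENSGALG00000041179 by 2.49 ± 0.23 at ZT20 against ZT12. ENSGALG00000046093 was at 46.9, 67.8 and 46.9 TPM at ZT0, 69.1, 50.0 and 35.1 TPM at ZT12 and 295, 289 and 343 TPM at ZT20. Unlike the mRNAs beside G9492, these 3 had log2 differences of only -0.10 to 0.02 between ZT12 and ZT0.

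Beside G6053 (chr19:193319-194147), an antisense lncRNA within an intron, all 6 mRNAs with values rose at ZT20 against ZT12. ENSGALG00000053871 was at 40.7, 28.9 and 28.8 TPM at ZT0, 16.0, 19.0 and 13.4 TPM at ZT12 and 176, 215 and 207 TPM at ZT20, a rise of 3.55 ± 0.18. ENSGALG00000054915 rose by 3.60 ± 0.27 and ENSGALG00000033792 by 3.31 ± 0.19. ENSGALG00000054415 was uneven, with 20.9 and 35.1 TPM in 2 ZT20 hens and 1.02 TPM in ZT20 replicate 3. Its adjusted p of 0.0139 by limma rose above 0.05 when ZT20 replicate 1 (0.0545) or replicate 2 (0.0537) was left out. It was then no longer called.

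Beside G6846 and G6850 (chr2:31121630-31123481 and chr2:31037163-31037530) the 6 mRNAs with values were nearly silent before the surge, at 0 to 0.743 TPM, and stood at 0.625 to 8.98 TPM at ZT20. Of these, 5 rose, and ENSGALG00000048251 missed the limit on fold change with 0.96 ± 0.14. GPNMB, a transmembrane glycoprotein, and IGF2BP3, an RNA-binding protein, are listed near them without values. G6846 itself was far higher than these mRNAs, at 18.4, 24.2 and 34.8 TPM at ZT0, 19.6, 24.8 and 12.4 TPM at ZT12 and 468, 365 and 381 TPM at ZT20. Beside G9442 (chr24:5189672-5192599), ENSGALG00000046843 and ENSGALG00000030139 rose by 2.57 ± 0.23 and 2.41 ± 0.24, near the listed genes APOA1, APOA4 and APOC3, which encode lipoprotein components.

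The place of G5405 (chr17:686656-740597) was mixed. ENSGALG00000030561 rose by 2.42 ± 0.18 at ZT20 against ZT12 and ENSGALG00000047814 by 1.59 ± 0.12. The latter was low, at 0 to 0.167 TPM at ZT12 and 2.12 to 2.32 TPM at ZT20. The other 4 mRNAs with values there were not called. ENSGALG00000041514 was at 3.03, 3.76 and 3.07 TPM at ZT20 and 5.65, 5.47 and 4.94 TPM at ZT12, a log2 fold change of -0.57 ± 0.18, short of the limit. Beside G7886, ENSGALG00000048280 and ENSGALG00000029842 were also not called, with fold changes of -0.56 and -0.67. Over the 7 mRNAs that were not called at ZT20 against ZT12, the fold changes ran from -0.67 to 0.96.

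The study set TTYH3 beside G4510, TRAF2 beside G5405 and STAR beside G13560. It measured these pairs by quantitative PCR as well, and reported that LH raised G13560 and STAR in cultured granulosa cells. No values of TRAF2 are given here. TTYH3, a membrane protein of the tweety family, was at 19.5, 28.7 and 38.0 TPM at ZT0, 10.7, 10.9 and 2.601 TPM at ZT12 and 877, 761 and 832 TPM at ZT20. It shares with G4510 the order of the stages, the lack of overlap and the lowest value in ZT12 replicate 3. TTYH3 was called lower at ZT12 than at ZT0 (log2 fold change -1.85, adjusted p = 0.0224 by limma), as were 3.32% of all mRNAs. Part of the shared pattern is common among lncRNAs. All ZT12 libraries lay below all ZT0 libraries in 42.1% of the lncRNAs expressed at both stages. ZT12 replicate 3 held the lowest earlier value in 72.2% of such lncRNAs outside the set. Neither share was counted over mRNAs. A link between TTYH3 and G4510 was not tested. STAR, which carries cholesterol into mitochondria for steroid synthesis, was at 2133, 2071 and 1011 TPM at ZT0, 1453, 1736 and 1403 TPM at ZT12 and 16462, 13747 and 10507 TPM at ZT20. Its ZT20 libraries were all above the rest, and its ZT0 and ZT12 libraries overlapped.

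Of 54 genes listed for the response of granulosa cells to the surge, 7 could be paired with values. At ZT20 against ZT12, 2 rose (STAR by 3.13 ± 0.30 and HBEGF, a ligand of the EGF receptor, by 1.15 ± 0.30), 4 fell and PLAT, tissue plasminogen activator, was not called at -0.35 ± 0.14. HBEGF was low, at 0.042 to 0.227 TPM in the earlier libraries and 3.57, 1.23 and 0.662 TPM at ZT20. Of all mRNAs 16.0% rose and 11.7% fell. Those that fell were NR5A1 and NR5A2, nuclear receptors that act on steroid synthesis genes (-2.06 ± 0.20 and -3.31 ± 0.17), POR, the reductase that passes electrons to microsomal P450 enzymes (-2.11 ± 0.22), and PLAU, urokinase (-2.23 ± 0.60).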

How the data were processed

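RNA of F1 granulosa cells from 9 hens, 3 per stage, was analysed. The authors aligned reads with STAR 2.6.0c to Gallus_gallus v6.0, assembled lncRNAs with Cufflinks (2.2.1 per the labels), merged them with TACO, removed those with coding potential and estimated TPM with Kallisto, and the authors deposited log2 values, 1 table of mRNAs and 1 of lncRNAs. The mRNA table was taken as log2(TPM + 1) and the lncRNA table, whose lowest value is 1, as log2(TPM + 2). Every transcript that passed 0.1 TPM in 1 library or more was tested with limma 3.58.1 in R 4.3.3 on log2(TPM + 1), with 3 stage means, a mean-variance trend, 6 residual degrees of freedom and Benjamini-Hochberg adjustment over each table. Called were absolute log2 fold changes above 1 with an adjusted p under 0.05. The fitting code had been tested on simulated data.

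The study's own test, DESeq2, needs counts and was not run. Such fold changes understate the change of transcripts with low TPM. The study states raw reads per library, but the reads assigned to a transcript are unknown, so no counting interval is given. The 93 lncRNAs and the gene lists were chosen with earlier results of these data known. lncRNAs named are the 10 with the largest rise, the 10 highest at ZT20, the 4 on each side of the threshold, those the study names, and the 4 extremes of spread and of ZT12 minus ZT0. Runs and places with several of the 93, and the non-members in them, were chosen after their values were seen. Neighbours are the genes that the study's annotation lists within 100 kb, since the positions it gives for mRNAs and lncRNAs are shifted against each other. Python 3.11.15, numpy 2.4.6, pandas 2.3.3 and matplotlib 3.10.9 were used. Alternatives were another pseudocount, other filters, quantile normalization, median ratio scaling, no trend, a fit of the 2 stages compared, no fold change threshold, a replicate block, 1 fit for both tables, another reading of the lncRNA scale and each library left out. The same replicate numbers in different stages belong to different hens.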

Additional observations from a re-analysis of the deposited data

How the results depend on the processing

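The number of lncRNAs in the set moved with its limits: 172 with a rise of at least 1, 144 with a floor of 1.5 and 37 with a floor of 3, against 93. Without 1 library it ran from 85 to 113. Of the 93, 88 were also chosen after median ratio scaling and 78 after quantile normalization. The 0 calls between ZT12 and ZT0 became 2 (ENSGALG00000030720 and G9492) when the test was limited to lncRNAs that had 1 TPM or more in 3 or more libraries, and 14, all lower at ZT12, when lncRNAs and mRNAs were fitted together. They stayed at 0 without any 1 library. Over all lncRNAs the 6 calls became 23 and 238 in those fits, 2 without a filter, 14 without the trend and 0 with only the 2 stages, and ran from 2 to 6 without 1 library. They were 2 without ZT12 replicate 1, ZT12 replicate 2 or any ZT20 library, and 3 without ZT0 replicate 1 or ZT12 replicate 3. The cause was not tested. The neighbouring mRNAs called ran from 22 to 24 at ZT20 against ZT12, from 21 to 23 at ZT20 against ZT0 and from 5 to 7 at ZT12 against ZT0 without 1 library. The last count, whose alternatives were chosen after seeing the data, was 10 with a pseudocount of 0.1 TPM and 10 without the fold change threshold. With that pseudocount the neighbours called at ZT20 against ZT12 were 24 higher and 2 lower. They were 26 higher and 2 lower without the fold change threshold. The share of all mRNAs called was not counted under these settings. Without the most abundant lncRNA the set held 2.28% of lncRNA TPM at ZT0, 1.47% at ZT12 and 16.9% at ZT20. Samples with the same replicate number did not deviate together (correlations from -0.18 to 0.07 over lncRNAs and from -0.19 to 0.08 over mRNAs), and a replicate block gave 0 members, 4 lncRNAs, and 23, 21 and 6 neighbours. Neighbours within 10 kb or overlapping a lncRNA were planned and not run, because positions of mRNAs and lncRNAs could not be compared. The reads assigned to each transcript are unknown, so what depth limits was not computed.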
